A study of Mus musculus with 2 samples.

Results

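The 10 genes described here encode the machinery that moves a cell out of the G1 phase of the cell cycle. They are the D-type cyclin genes Ccnd1, Ccnd2 and Ccnd3, the E-type cyclin genes Ccne1 and Ccne2, the kinase genes Cdk2, Cdk4 and Cdk6, and the transcription factor genes E2f1 and E2f2. They were taken by symbol from a count table of 35275 mouse genes, and all 10 were found and passed the minimum of 20 reads over both libraries. The table compares sorted MSPC, the mesenchymal stem/progenitor cells of bone marrow that support blood stem cells, between 2 genotypes. The control was Ptpn11+/+ and the mutant Ptpn11E76K/+, which carries on 1 allele an activating amino acid change in the phosphatase SHP2. SHP2 relays growth factor signals to the RAS-ERK pathway. Mice of both genotypes were C57BL/6 and carried Nestin-Cre, a recombinase expressed from the Nestin promoter, so the recombinase was present in both groups. Cells were sorted from fresh marrow as positive for CD140 and Sca-1 and negative for CD45, Ter-119 and CD31, and polyadenylated RNA was sequenced. The labels state neither ages nor whether animals were pooled. The series' design text mentions 2 replicates, but the table holds 1 column per genotype.

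Growth signals act on G1 largely through the D-type cyclins, which bind and activate CDK4 or CDK6. These kinases phosphorylate the retinoblastoma protein RB and its relatives, which then release the E2F factors. E2F1 and E2F2 activate genes of DNA replication, among them the E-type cyclin genes, and cyclin E with CDK2 phosphorylates RB further. INK4 proteins block CDK4 and CDK6, and CIP/KIP proteins act mainly on CDK2. ERK signalling is a textbook inducer of Ccnd1.

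Sequencing gave 22328659 counted reads for the control and 18010963 for the mutant. The labels list 1 library per genotype, so there is no spread between animals and no test could be run. Every ratio below compares 2 libraries after TMM scaling (a factor per library that corrects for differences in RNA composition). Its 95% exact interval covers counting error only. A gene was called where its whole interval lay beyond 2-fold, and over 13142 measured genes this held for 6.98% in the higher and 8.29% in the lower direction in the mutant library. The higher direction took 45.7% of calls, or 35.5% under totals that leave out the 100 most abundant genes, a scaling that moved the median log2 ratio of all genes by -0.13. Total-count scaling moved it by -0.10. Of the sort genes, Pdgfra and Pdgfrb (CD140) had 2073 and 6075 counts in the control and 1792 and 3721 in the mutant. After scaling their ratios were 1.15 (1.08 to 1.23) and 0.81 (0.78 to 0.85). Ly6a (Sca-1), with 2177 and 612 counts, was called 2.67-fold lower, and Ptprc (CD45) had 1 and 12. Of 12 MSPC markers 11 were measured. Nes, Thy1 and Mcam were called higher, at 2.76, 2.57 and 5.46-fold, and Ly6a, Cxcl12 and Prrx1 lower, the last 2 at 3.39 and 2.75-fold. The part of these differences in the G1 results was not tested. The stromal marker Lepr had only 7 and 4 counts. Ptpn11 had 5958 and 5039 counts, and gene-level counts do not show which allele they came from. Mki67, a marker gene of cycling cells, was at 484 CPM (counts per 1000000 scaled counts) in both libraries.

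Among the 10 genes, Ccnd2 was 2.29-fold lower in the mutant library, and the other 9 were not called. Of those 9, 8 had ratios above 1, from 1.20 for Ccnd1 to 2.49 for E2f2, and Cdk6 stood at 0.87. The count called is thus 0 of 10 higher and 1 of 10 lower, beside the 6.98% and 8.29% of all measured genes, so neither share stands far from that background. Asking only that the interval lie beyond no difference, 8 of 10 were higher and 1 lower, where 39.6% and 37.4% of all measured genes were. The median log2 ratio of the 10 genes was 0.42, and that of all measured genes was 0.01. Removing trends of the ratio over transcript length and GC content left a median of 0.29 for the 10 genes. The plots of levels and of ratios show the same pattern gene by gene.

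**Figure D1:**
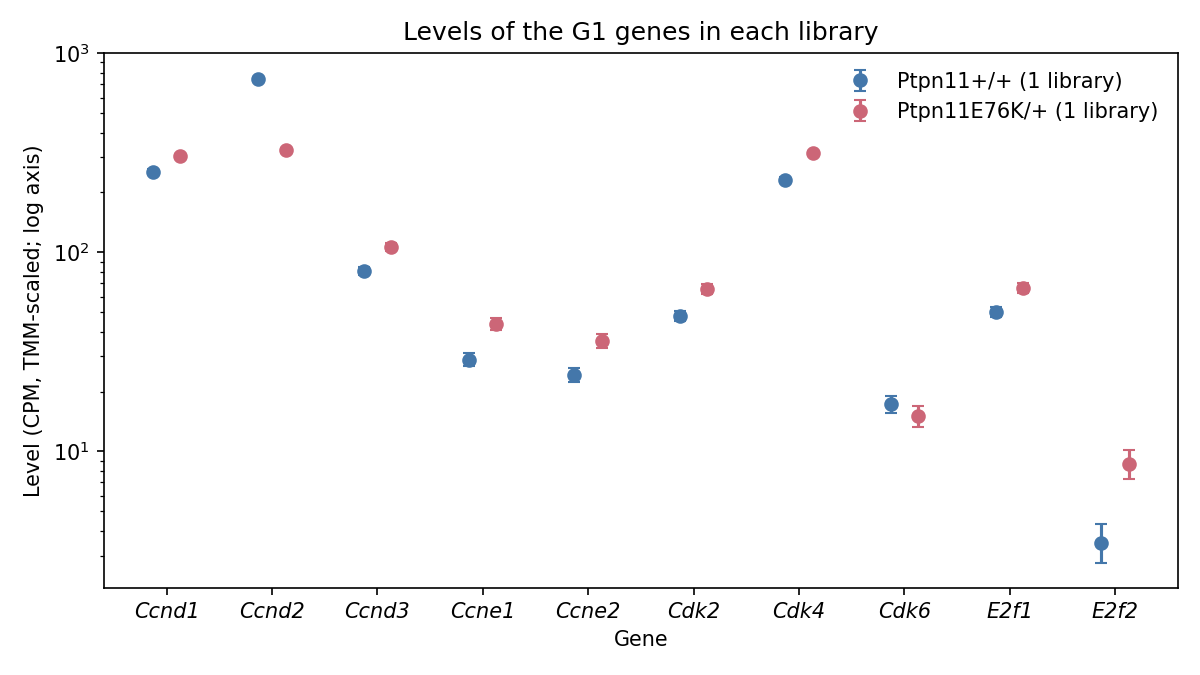
Level of each gene in CPM on a log axis, with 1 point per library (blue, Ptpn11+/+; red, Ptpn11E76K/+) and bars for the 95% exact Poisson counting interval. Ccnd2 stood at 747 and 326 CPM, whereas the points of E2f2 were at 3.46 and 8.63 CPM.

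**Figure D2:**
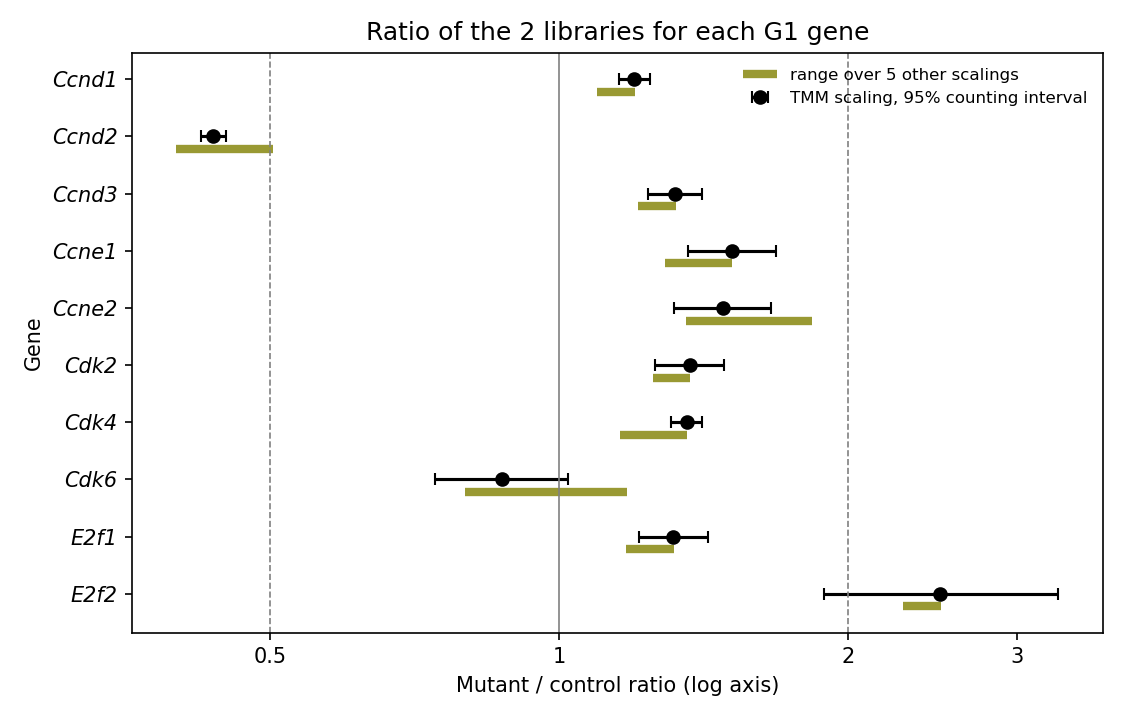
Mutant to control ratio of each gene on a log axis, with its 95% counting interval (black) and the range over 5 other ways of scaling (olive); dashed lines mark 2-fold. Ccnd2 lies at 0.44 with an olive range that ends at 0.50, and the olive range of Cdk6 spans both sides of 1.

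The D-type cyclins, which link growth signals to CDK4 and CDK6, went in different directions. Ccnd2 had 17273 control and 5660 mutant counts, or 747 CPM (95% interval 736 to 758) and 326 CPM (317 to 334). The mutant level was 2.29-fold lower (2.23 to 2.36), below that of 88.7% of measured genes when ratios were ranked. With the length and GC trends removed, Ccnd2 was 1.99-fold lower (1.93 to 2.05) and was not called. Under the other 4 scalings it was called, at 2.29 to 2.51-fold lower.

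Ccnd1, the D-type cyclin gene best known as a target of ERK signalling, had 5895 and 5308 counts in control and mutant. Its levels of 255 CPM (248 to 261) and 305 CPM (297 to 314) gave a ratio of 1.20 (1.15 to 1.24). Leaving the most abundant genes out of the totals brought that ratio to 1.10. A larger ratio was seen in 36.5% of all measured genes. Ccnd3 had 1859 and 1846 counts, at 80.4 and 106 CPM, with a ratio of 1.32 (1.24 to 1.41). Neither gene was called.

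Levels of different genes are compared here per kilobase of the longest annotated transcript, in CPM per kilobase. In the control library Ccnd2 was the most abundant of the 10 genes on this scale, at 118 CPM per kilobase, ahead of Cdk4 at 113 and Ccnd1 at 68.1. In the mutant library Cdk4 led at 154, followed by Ccnd1 at 81.6 and Ccnd2 at 51.4. The control order went on with Ccnd3 (20.8), E2f1 (18.3), Cdk2 (14.7), Ccne1 (14.5), Ccne2 (8.04), Cdk6 (1.501) and E2f2 (0.73). In the mutant it went on with Ccnd3 (27.5), E2f1 (24.0), Ccne1 (21.9), Cdk2 (20.1), Ccne2 (11.9), E2f2 (1.82) and Cdk6 (1.31). Cdk2 and Ccne1 changed places, but their counting intervals overlap in both libraries. Per mean transcript length Ccne1 stood above Cdk2 in both, at 33.2 against 21.2 and 50.3 against 29.0 CPM per kilobase. On that scale E2f1 stood below both genes, at 18.3 in the control and 24.1 in the mutant. E2f2 stood above Cdk6 in the mutant only by the longest transcript, and below it per mean transcript length. Ccnd2 thus made up 57.0% of the control's summed D-type cyclin level (56.3 to 57.7, counting error only) and 32.0% in the mutant (31.3 to 32.8). Ccnd1 made up 32.9% and 50.8%, and Ccnd3 10.1% and 17.1%. The sum of the 3 genes was 207 CPM per kilobase in the control, against 161 in the mutant.

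The ratio of Ccnd1 to Ccnd2 needs no scaling between libraries, and it was 2.75 times as large in the mutant as in the control (2.62 to 2.88). The ratio of Ccnd2 to Ccnd3 was 3.03 times smaller (2.82 to 3.26), and that of Ccnd1 to Ccnd3 1.10 times smaller (1.02 to 1.19). Without the length and GC trends the Ccnd1 to Ccnd3 ratio was 0.93 times the control value (0.86 to 1.001), an interval that includes 1. The order of Ccnd1 and Ccnd2 depends on the length used. Per mean transcript length, Ccnd2 stood above Ccnd1 in both libraries, with 456 against 128 CPM per kilobase in the control and 199 against 153 in the mutant. The change in their ratio between libraries does not depend on it.

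**Figure D3:**
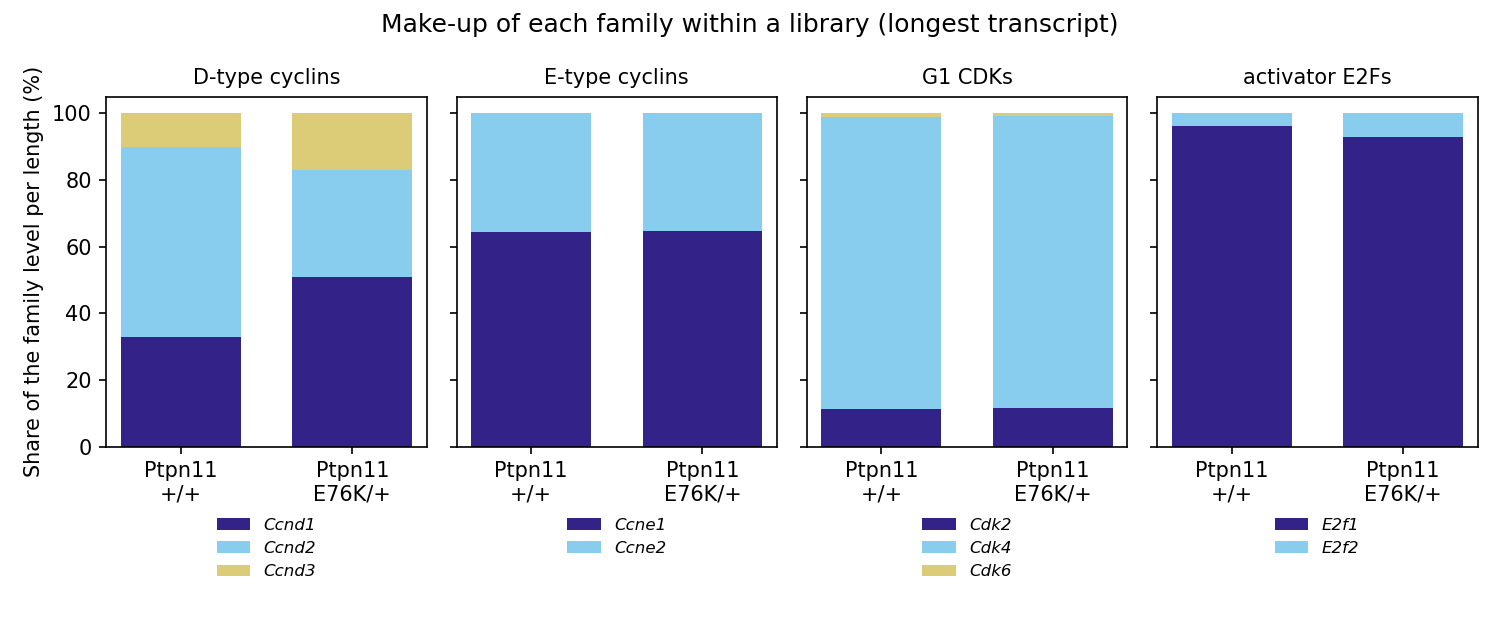
Share of each gene in the summed level of its family (percent, per kilobase of the longest transcript), with 1 stacked bar per library for the D-type cyclins, E-type cyclins, G1 kinases and activator E2F genes. The Ccnd2 segment goes from 57.0% to 32.0%, while Ccne1 holds 64.3% and 64.8% of the E-type cyclin level and Cdk4 87.5% and 87.8% of the kinase level.

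Of the kinases that D-type cyclins activate, Cdk4 was the abundant one. It had 5375 control and 5485 mutant counts, at 232 CPM (226 to 239) and 315 CPM (307 to 324), a ratio of 1.36 (1.31 to 1.41). That ratio was 1.16 (1.11 to 1.20) without the length and GC trends. Cdk6, which encodes the closely related partner of the D-type cyclins, had 400 and 262 counts, at 17.3 and 15.1 CPM. Its ratio of 0.87 (0.74 to 1.02) had an interval that included 1. With total counts it was 0.81 (0.69 to 0.95), and with totals lacking the most abundant genes 0.80 (0.68 to 0.93). Without the length and GC trends it turned to 1.18 (1.004 to 1.38), so the direction of Cdk6 is not settled by these libraries. Per kilobase, Cdk4 stood 75.4 times above Cdk6 in the control and 118 times above it in the mutant. The longest Cdk6 transcript has 11525 bases and that of Cdk4 2053. Per mean transcript length the figures were 37.0 and 57.7. The ratio of Cdk4 to Cdk6 was 1.56 times as large in the mutant library (1.32 to 1.84). Without the length and GC trends it was 0.98 times the control value (0.84 to 1.16), so that difference between the kinases was not seen there.

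The E-type cyclins and their kinase had ratios of similar size. Ccne1 had 669 and 761 counts, at 28.9 CPM (26.8 to 31.2) and 43.8 CPM (40.7 to 47.0), a ratio of 1.51 (1.36 to 1.68). Ccne2 had 559 and 622 counts, at 24.2 and 35.8 CPM, a ratio of 1.48 (1.32 to 1.66). Removing the length and GC trends separated them, with 1.29 (1.16 to 1.43) for Ccne1 and 1.84 (1.63 to 2.06) for Ccne2. The ratio of Ccne1 to Ccne2 was 1.02 times the control value (0.87 to 1.20), an interval that includes 1. Without the trends that value was 0.70 (0.60 to 0.82). Cdk2, the kinase gene that serves cyclin E, had 1109 and 1140 counts, at 47.9 and 65.6 CPM, a ratio of 1.37 (1.26 to 1.49). The ratio of Cdk2 to Cdk4 was 1.01 times the control value (0.92 to 1.10), and 1.15 times (1.05 to 1.26) without the trends. None of these 3 genes was called.

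The activator E2F genes stood above the control in the mutant library by unequal amounts. E2f1 had 1164 and 1151 counts, at 50.3 CPM (47.5 to 53.3) and 66.2 CPM (62.4 to 70.1), a ratio of 1.32 (1.21 to 1.43). E2f2 was the scarcest of the 10 genes by counts, with 80 in the control and 150 in the mutant. Its levels of 3.46 CPM (2.74 to 4.30) and 8.63 CPM (7.30 to 10.1) had counting intervals that do not overlap, and the ratio was 2.49 (1.89 to 3.31). The lower bound fell short of 2, so E2f2 was not called. It was the only member with its interval above 1.5, as Ccnd2 was the only one with it below the inverse of 1.5, where 15.7% of all measured genes were higher and 15.6% lower. A larger ratio was seen in 6.44% of measured genes. Relative to E2f1, E2f2 was 1.90 times as abundant in the mutant as in the control (1.42 to 2.55), and its share of their summed level per kilobase was 3.84% (3.05 to 4.77) and 7.04% (5.97 to 8.25).

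E2F proteins bind promoter elements built around a run of T followed by G and C bases, and E2F genes are themselves known to carry such elements. RefSeq promoters (GRCm38.p6, 250 bases before to 50 after a transcript start) were supplied for 7 of the 10 genes, with 9 windows in all. They were searched on both strands for the letters TTTGGCGC, TTTCGCGC, TTTCCCGC and TTTGCCGC. A match on one strand can overlap a match on the other. Of the 9 windows 2 held a match, beside 2.26% of all 32851 windows. One is an E2f2 window on the plus strand at chr4:136172024-136172323, with TTTGGCGC starting 39 bases after the start position. The other is the Cdk2 window on the minus strand at chr10:128705002-128705301. The latter holds TTTCCCGC on its other strand, 140 bases before the start, and so reads GCGGGAAA below. Both are shown because they are the windows with a match among these genes, in lower case with the matched letters in capitals.
E2f2: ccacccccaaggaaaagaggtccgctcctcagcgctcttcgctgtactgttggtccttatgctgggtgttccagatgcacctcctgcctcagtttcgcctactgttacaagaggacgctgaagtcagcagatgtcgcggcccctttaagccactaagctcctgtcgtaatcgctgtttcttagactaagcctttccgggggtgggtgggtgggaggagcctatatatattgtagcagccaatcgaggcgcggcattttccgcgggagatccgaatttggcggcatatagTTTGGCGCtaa
Cdk2: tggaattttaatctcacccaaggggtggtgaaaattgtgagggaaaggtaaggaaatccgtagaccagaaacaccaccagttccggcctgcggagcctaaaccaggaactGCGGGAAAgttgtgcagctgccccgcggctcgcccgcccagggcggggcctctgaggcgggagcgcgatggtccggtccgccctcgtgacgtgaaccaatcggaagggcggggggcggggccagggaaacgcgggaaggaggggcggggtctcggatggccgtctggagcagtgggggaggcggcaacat
A match is a description of the letters and not evidence of binding. The supplied windows need not hold every start of a gene. The lack of a match in the window of E2f1 thus does not show that its promoter has no such letters. The 9 windows had a median of 25 CpG pairs and 66.7% GC, against 7 pairs and 52.7% over all windows. Another E2f2 window, at chr4:136180532-136180831, held no match, with 7 CpG pairs and 56.7% GC. Each searched string itself holds a CpG, so the 2.26% of all windows is not a background of like composition.

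Of the 3 pocket protein genes, whose products hold E2F factors in check, Rbl2 was called lower and the other two were not called. Of 17 other RB and E2F family genes and partners, all measured, 2 were called higher and 1 lower. Neither share stood far from the 6.98% and 8.29% of all measured genes, and the median log2 ratio of the 17 genes was 0.22. Rbl2, which encodes p130, the RB relative of resting cells, stood at 1067 and 305 counts, 2.63-fold lower in the mutant (2.31 to 2.997). Rb1 itself stood at 503 and 205 counts, with a ratio of 0.54 (0.46 to 0.64). Rbl1, which encodes p107, stood at 1378 and 1120 counts, with a ratio of 1.08 (0.998 to 1.17), or 1.29 (1.19 to 1.40) without the length and GC trends. E2f4, whose protein acts mostly as a repressor with p130, was 2.22-fold higher (2.03 to 2.42), and Mybl2, an E2F target that encodes a partner of the MuvB complex, 2.24-fold higher (2.04 to 2.45). Under upper-quartile factors 1 of these genes was called higher. With total counts, with totals that leave out the most abundant genes, or without the length and GC trends, 0 were. E2f3, the remaining activator E2F gene, had 690 and 652 counts and a ratio of 1.26 (1.13 to 1.40).

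Of 7 CDK inhibitor genes, 3 were called lower and 0 higher, beside 8.29% and 6.98% of all measured genes. The median log2 ratio of the 7 genes was -0.55. Cdkn2a, the gene of p16 and ARF, stood at 1130 and 22 counts, 38.6-fold lower in the mutant (25.4 to 61.9). Cdkn2b, the gene of p15, was 3.69-fold lower (2.96 to 4.63), and Cdkn1c, the gene of p57, 4.86-fold lower (2.81 to 9.02). Cdkn1a, the gene of p21, had a ratio of 0.90 (0.86 to 0.94), and Cdkn1b, the gene of p27, one of 0.68 (0.63 to 0.74). Summed per kilobase, Cdk4 and Cdk6 came to 0.80 times the level of the 4 INK4 genes in the control and 1.79 times in the mutant. Per mean transcript length those values were 1.31 and 2.64. The D-type cyclins came to 1.64 times the level of the 3 CIP/KIP genes in the control and 1.48 times in the mutant, or 3.45 and 2.74 times per mean length. Gene-level counts of Cdkn2a do not separate p16 from ARF, which is no CDK inhibitor, and these sums were formed after the values were seen.

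Among 15 genes that activate, assemble or turn over G1 cyclin-CDK complexes, 1 was called higher and 0 lower. Neither share stood far from the 6.98% and 8.29% of all measured genes, and the median log2 ratio of the 15 genes was 0.16. Cks1b, whose protein helps SKP2 to mark p27 for destruction, was 2.24-fold higher (2.09 to 2.41). It was not called with total counts or with totals lacking the most abundant genes, and its ratio was 1.75 without the length and GC trends. Of 7 genes that encode S to M phase cyclins or CDK1, 5 were measured and 0 called in either direction, all 5 with intervals above 1. Ccna2, the cyclin gene of S phase, had 2842 and 2859 counts and a ratio of 1.34 (1.27 to 1.41). Cdk1, the mitotic kinase gene, had 2914 and 4283 counts and a ratio of 1.95 (1.86 to 2.05).

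Replication genes that E2F factors activate were mostly higher in the mutant library. Of 30 such genes, all measured, 8 were called higher and 0 lower, beside 6.98% and 8.29% of all measured genes. Of the 30, 29 had a ratio above 1, as did 50.1% of all measured genes. Their median log2 ratio was 0.92, beside 0.42 for the 10 G1 genes. Cdt1, which loads the replicative helicase, was 3.77-fold higher (3.39 to 4.22). Rrm2, a subunit of ribonucleotide reductase, was 2.74-fold higher (2.64 to 2.83), the helicase genes Mcm5 and Mcm3 2.57-fold and 2.55-fold higher, and Tk1 and Mcm7 2.34-fold and 2.27-fold higher. The exception was Pola1, a DNA polymerase subunit gene, with a ratio of 0.66 (0.61 to 0.71). Under totals lacking the most abundant genes, 5 were called higher.

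**Figure D4:**
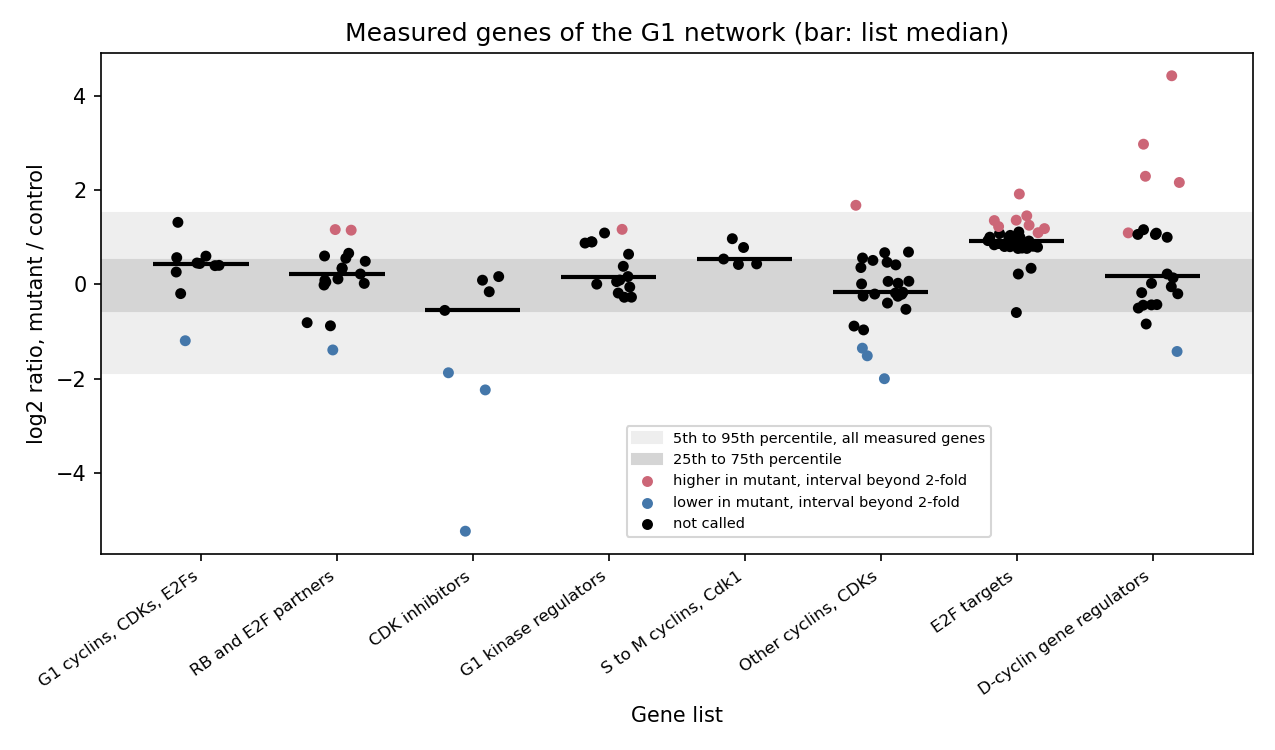
log2 ratio of mutant to control for each measured gene (points) of the G1 genes and of 7 related lists, with list medians as bars; red and blue points were called higher and lower, and grey bands give the spread of all measured genes. The E2F targets cluster around a median of 0.92, and the lowest point is Cdkn2a among the CDK inhibitors.

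Of 22 genes of transcription factors known to act on D-type cyclin genes, 5 were called higher and 1 lower. Of all measured genes, 6.98% were called higher and 8.29% lower. The median log2 ratio of the 22 genes was 0.18. With intervals beyond no difference, 11 of the 22 were higher and 9 lower, beside 39.6% and 37.4% of all measured genes. Fosl1, an AP-1 subunit gene, was 7.85-fold higher (7.15 to 8.65). Myc was 4.90-fold higher (4.42 to 5.44), and Etv4, which encodes an ETS factor, 4.48-fold higher (3.90 to 5.15). Lef1, a WNT effector gene, went from 3 to 56 counts, a ratio of 24.8 (8.07 to 124). Jun, also an AP-1 subunit gene, was 2.13-fold higher (2.004 to 2.27), and its ratio was as low as 1.95 under other scalings. The other AP-1 subunit genes of the list were split and not called. Fosb and Junb had ratios of 2.24 and 2.08, while Fos, Fosl2 and Jund had ratios of 0.56, 0.74 and 0.87. Mycn, with 205 and 57 counts, was 2.70-fold lower (2.01 to 3.69).

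Markers of monocytes and macrophages and pan-haematopoietic markers had higher summed levels in the mutant library. Of 14 monocyte and macrophage markers, 6 were at 0 in the control and 0 were at 0 in the mutant, and their summed level was 14.8 and 61.7 CPM. Of 12 pan-haematopoietic markers, 5 and 0 were at 0, with sums of 30.6 and 68.1 CPM. Most of both sums came from Runx1, which had 696 and 957 counts and was not called. Called higher were 8 of 11 measured monocyte and macrophage markers and 4 of 6 measured pan-haematopoietic markers. In both lists 0 were called lower, beside 6.98% higher and 8.29% lower over all measured genes. Lyz2, a monocyte and macrophage marker, had 11 and 276 counts, and the pan-haematopoietic marker Itgb2 had 0 and 49. Erythroid markers (9 matched) summed to 0.69 and 0.35 CPM and 10 lymphoid markers to 0.26 and 0.29 CPM. The 9 endothelial markers summed to 1.47 and 18.3 CPM, mostly from Flt1 with 14 and 290 counts, while Cldn5 and Tie1 were at 0 in both. The 10 keratinocyte markers summed to 18.2 and 6.61 CPM, mostly from Trp63 with 315 and 16 counts and Krt10 with 105 and 79. Krt14, Lor and Ivl were at 0 in the control and at 3, 12 and 3 counts in the mutant. The part of these cells in the ratios of the G1 genes was not tested, and in bulk RNA fewer cells of a type and less RNA per cell cannot be told apart. Ccnd2 was 421 CPM lower in the mutant library, and E2f2 5.17 CPM higher. Summed marker levels do not measure how many reads of these genes came from other cells.

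Reads of neighbouring genes can be shared where the counting did not use strand, and the labels do not say whether it did. In GENCODE M21 exons of 7 of the 10 genes overlap a gene on the opposite strand. Ccnd1 shares 1100 of its 4709 exon bases with LTO1 (525 and 269 counts), and Cdk4 shares 641 of 3249 with Tspan31 (1926 and 1217 counts). Ccne2 shares 609 of 3495 with Ints8 (1238 and 842 counts), and Ccnd3 361 of 8775 with Bysl (719 and 1429 counts). Ccnd2 shares 368 of 9409 with 9330179D12Rik, which had 18 and 8 counts. Ccnd3-ps, a pseudogene of Ccnd3, had 0 counts in both libraries.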

How the data were processed

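RNA sequencing of 1 library of Ptpn11+/+ and 1 of Ptpn11E76K/+ sorted MSPC was analysed, grouped by the genotype label. The authors deposited raw whole-number read counts per Ensembl gene, without normalization. The submitters' processing notes list CASAVA, TopHat and edgeR and the build mm9, with no version or role. The counter, annotation and strandedness are not given in the sources.

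Symbols came from the supplied gene name table (34490 of 35275 identifiers). Library totals were scaled with TMM factors of 1.0358 and 0.9654 (edgeR 4.0.16, R 4.3.3). Ratios have 95% exact Clopper-Pearson intervals from the split of a gene's counts, and CPM exact Poisson intervals (SciPy 1.17.1). Ratios between a pair of genes (8 pairs) have exact conditional odds ratio intervals. Medians of log2 ratios use a prior count of 0.5. Transcript lengths and GC content come from GENCODE M21, which is on another build than mm9. For that reason the only coordinates given are those of promoter windows, on GRCm38.p6. Ratios were recomputed with total counts, with upper-quartile factors, with size factors from DESeq2 1.42.0, with totals lacking the 100 most abundant genes, and with cubic trends over length and GC content removed. Other alternatives were different thresholds, count minimums of none and 100, a 99% interval, a prior count of 5 and mean transcript length. The interval script was tested on simulated data. The members and lists were chosen with earlier results of these data known. Named genes are the 10 members, up to 6 called genes per related list and 10 genes fixed by name. Genes given beyond these (Pola1, AP-1 subunit genes that were not called, marker genes and overlapping genes) were added after their values were seen.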

Additional observations from a re-analysis of the deposited data

How the results depend on the processing

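No paired analysis was possible because each genotype has 1 library, and no library could be left out for the same reason. The ratios of 8 of the 10 genes were above 1 under 4 other scalings, and 9 were when length and GC trends were removed, where Cdk6 joined them and 0 genes were called lower. In the other scalings and with a 99% interval 1 gene, Ccnd2, was called lower and 0 higher. At a threshold of 1.5-fold 1 gene was higher, and 8 were with intervals beyond no difference. The median log2 ratio of the members was 0.29 with the most abundant genes left out, where that of all measured genes moved by -0.13 as well. It was 0.29 without length and GC trends; the cause was not tested. In a comparison added after seeing the data, removing those trends gave changes of 2.34 for Ccnd1/Ccnd2, 0.40 for Ccnd2/Ccnd3, 0.70 for Ccne1/Ccne2, 1.15 for Cdk2/Cdk4, 1.13 for Cdk2/Cdk6 and 0.98 for Cdk4/Cdk6, each as mutant over control; the cause was not tested. Per mean transcript length the family shares in control and mutant were 69.9% and 44.98% for Ccnd2, 67.9% and 68.4% for Ccne1, 88.9% and 89.6% for Cdk4, and 93.2% and 87.8% for E2f1. The RB and E2F partners called higher were 1 with upper-quartile factors and 0 with total counts, with the most abundant genes left out or without the trends. The G1 kinase regulators called higher were 0, 0 and 2 under those last 3 settings. With 80 and 150 counts, depth limits E2f2 most.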

Other observations

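Cyclins and CDKs outside the cell cycle engine were split, with 12 of 25 measured genes at a ratio above 1. Of 28 such genes, 25 were measured, with 1 called higher, 3 lower and a median log2 ratio of -0.17. Of all measured genes, 6.98% were called higher and 8.29% lower. Ccng2 and Ccng1, cyclin G genes known as targets of FOXO factors and p53, were 4.02-fold (3.49 to 4.64) and 2.86-fold (2.74 to 2.99) lower in the mutant library. Cdk19, a kinase gene of the Mediator complex, was 2.56-fold lower (2.25 to 2.93). Cdk18 had 115 and 277 counts and was 3.20-fold higher (2.57 to 4.02).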
